A study of Rattus norvegicus with 23 samples.

Results

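miR-126 and miR-139 are miRNA hairpins that vessel-lining (endothelial) cells are known to express, and the 4 mature miRNAs measured here are both arms of each: rno-miR-126 and rno-miR-126*, and rno-miR-139-5p and rno-miR-139-3p, the prefix standing for rat. They were taken by these names from the 350 miRNAs on a rat array and are written without the prefix from here on. All 4 were detected on at least 7 of 23 arrays and so were among the 199 miRNAs tested. Total RNA of female Sprague-Dawley rats had been measured on 1-colour Agilent arrays, 1 array per tissue. There were 7 arrays of normal mammary tissue, 8 of mammary carcinomas that arose spontaneously and 8 of mammary carcinomas induced by radiation. No genotype beyond the strain, and no age, radiation dose or interval since irradiation, is given in the sources used here. By their codes the 16 carcinomas are from as many rats. The normal tissues carry only a running number, which leaves their animals unknown, and p-values that use them may measure technical spread in part. Animals coded K gave 5 of the spontaneous carcinomas and no other tissue, while animals coded M gave the other 3 and all 8 radiation-induced ones.

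A miRNA is cut from a hairpin precursor whose arms pair with each other. Either arm can be loaded into an Argonaute protein, where bases 2 to 8 of the miRNA, the seed, pair with target mRNAs, and the arm that is not loaded is usually degraded. The hairpin of miR-126 lies in an intron of Egfl7, the gene of a protein secreted by endothelial cells. In mouse and fish miR-126 is known to maintain vessel integrity by limiting Spred1 and Pik3r2, inhibitors of signalling downstream of vascular endothelial growth factor. miR-126* (miR-126-5p) is known in mouse to limit Dlk1 and to support endothelial proliferation. The hairpin of miR-139 lies within Pde2a, which encodes a phosphodiesterase of cyclic nucleotides, and miR-139-5p is known in human cells to limit ROCK2, IGF1R and CXCR4. The arrays hold no mRNA, so no endothelial marker outside these hairpins was measured, and the endothelial name of the set rests on that background. In tissue RNA, fewer cells of a type and less RNA per cell cannot be told apart.

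The mature sequences show which arm each name stands for and that the 4 seeds, in capitals, all differ. They are written 5′ to 3′ and come from RefSeq (rat assembly GRCr8).
miR-126: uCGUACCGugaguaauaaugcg
miR-126*: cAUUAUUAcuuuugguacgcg
miR-139-5p: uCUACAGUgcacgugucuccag
miR-139-3p: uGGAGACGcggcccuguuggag
All 4 names matched an entry, the first 2 as rno-miR-126a-3p and rno-miR-126a-5p. No other of the 724 mature rat miRNAs in that table shares any of these seeds. miR-126 lies at chr3:29813219-29813240 and miR-126* at chr3:29813182-29813202, on the plus strand inside Egfl7. A miRNA named rno-miR-126b is annotated on the opposite strand, where it overlaps 17 bases of miR-126*. miR-139-5p lies at chr1:165290865-165290886 and miR-139-3p at chr1:165290901-165290922, on the plus strand inside Pde2a. The 68-base hairpin of miR-139 (chr1:165290859-165290926) is printed because its arms gave different results below, with the mature arms in capitals.
Mir139 hairpin: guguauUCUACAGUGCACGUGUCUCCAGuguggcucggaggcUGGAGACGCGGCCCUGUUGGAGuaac
The GC content is 45.5% in miR-126, 38.1% in miR-126*, 54.5% in miR-139-5p and 68.2% in miR-139-3p. The median over the 724 mature miRNAs is 47.6%, and 30 of them, miR-139-3p included, have a GC content of at least 68.2%.

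Levels are log2 values of the background-subtracted spot signal after scaling between arrays, with a floor at 3.30. A miRNA counts as detected on an array where most spots of its probe were well above background. A level compares arrays for 1 probe and says nothing of which miRNA is the more abundant. The arrays of the groups differed in brightness before scaling: their 75th percentile ran from 335 to 936 in the spontaneous carcinomas, from 729 to 2032 in the radiation-induced ones and from 960 to 2494 in normal tissue. The spontaneous arrays also detected fewer miRNAs, 154 to 174 of 350, against 180 to 211 in normal tissue, and their lowest signal well above background was higher (12.0 to 29.7, against 3.90 to 9.56). Arrays stood on 4 slides of mixed composition, and all radiation-induced carcinomas were on slides 3 and 4. On 2 carcinoma arrays, spontaneous 1 and radiation-induced 3, all 5 miRNAs of the epithelial miR-200 family were at the floor, so results are also given without this pair.

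Of the 4 miRNAs, 3 were lower in both kinds of carcinoma than in normal mammary tissue. These were miR-126, miR-126* and miR-139-5p. Of all tested miRNAs, 14.6% were called lower in spontaneous and 8.54% in radiation-induced carcinomas. miR-139-5p met the detection filter only through normal tissue. Under another background correction (normexp, below) only miR-126 kept its call as lower. The fall of miR-126, the one of the 3 detected on all arrays, was 3.15-fold in spontaneous and 2.40-fold in radiation-induced carcinomas. miR-139-3p did not pass the test in any comparison of tissue groups, and its highest levels came from 1 slide that held all 3 tissues. None of the 4 passed the test between radiation-induced and spontaneous carcinomas.

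miR-126, the 3p arm, was detected on all 23 arrays. In normal tissue its level ran from 10.39 to 11.17 with a median of 10.85 (mean 10.84 ± 0.23, SD, n = 7). In the spontaneous carcinomas it ran from 8.22 to 9.93 with a median of 9.22 (9.19 ± 0.63, n = 8), and in the radiation-induced ones from 8.33 to 11.38 with a median of 9.64 (9.58 ± 0.93, n = 8). All 8 spontaneous carcinomas and 7 of 8 radiation-induced carcinomas lay below the lowest normal tissue. The exception was radiation-induced carcinoma 3, at 11.38 above every normal tissue, which is also the radiation-induced array on which the miR-200 family was at the floor. Both carcinoma groups were more spread than the normal tissues.

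miR-126*, the 5p arm of the same hairpin, gave a dimmer signal but the same order of groups. Normal tissue ran from 4.92 to 6.04 with a median of 5.55 (5.55 ± 0.36) and was detected on 7 of 7 arrays. The spontaneous carcinomas ran from the floor to 4.63 with a median of 3.81 (3.93 ± 0.56), with detection on 2 of 8 arrays. The radiation-induced carcinomas ran from the floor to 6.02 with a median of 4.17 (4.17 ± 0.88), with detection on 7 of 8. Radiation-induced carcinoma 3 was again the highest carcinoma, and the only one above the lowest normal tissue. Whether a level counted as detected differed between arrays: spontaneous carcinoma 4, at 4.60, was not well above background, whereas radiation-induced carcinoma 5, at 3.42, was.

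miR-139-5p was near the lower limit of the arrays in the carcinomas. In normal tissue it was detected on 7 of 7 arrays, from 4.42 to 5.52 with a median of 4.59 (4.87 ± 0.47). None of the 8 spontaneous carcinomas had it well above background: 6 were at the floor, and the other 2 were at 3.64 and 3.70. In the radiation-induced carcinomas it was detected on 4 of 8 arrays and at the floor on the other 4, with a highest level of 4.43 in carcinoma 3 (3.59 ± 0.42). The spontaneous carcinomas therefore did not overlap normal tissue, and the radiation-induced ones did so only through carcinoma 3, which lay just above the lowest normal tissue at 4.42. miR-139-5p met the filter of 7 arrays only through normal tissue, where it was high. Its calls and its lack of overlap against normal tissue, here and below, are therefore not free of that selection.

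miR-139-3p was detected on all 23 arrays and did not follow its partner arm. Normal tissue ran from 5.62 to 8.20 with a median of 6.97 (7.04 ± 0.84). The spontaneous carcinomas ran from 5.48 to 8.64 with a median of 7.59 (7.32 ± 1.11), and the radiation-induced ones from 4.67 to 9.36 with a median of 5.68 (6.54 ± 1.90). All 3 groups overlapped. Within the radiation-induced group the values fell into separate sets, with carcinomas 1 to 5 between 4.67 and 6.25 and carcinomas 6 to 8 between 8.41 and 9.36.

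**Figure D1:**
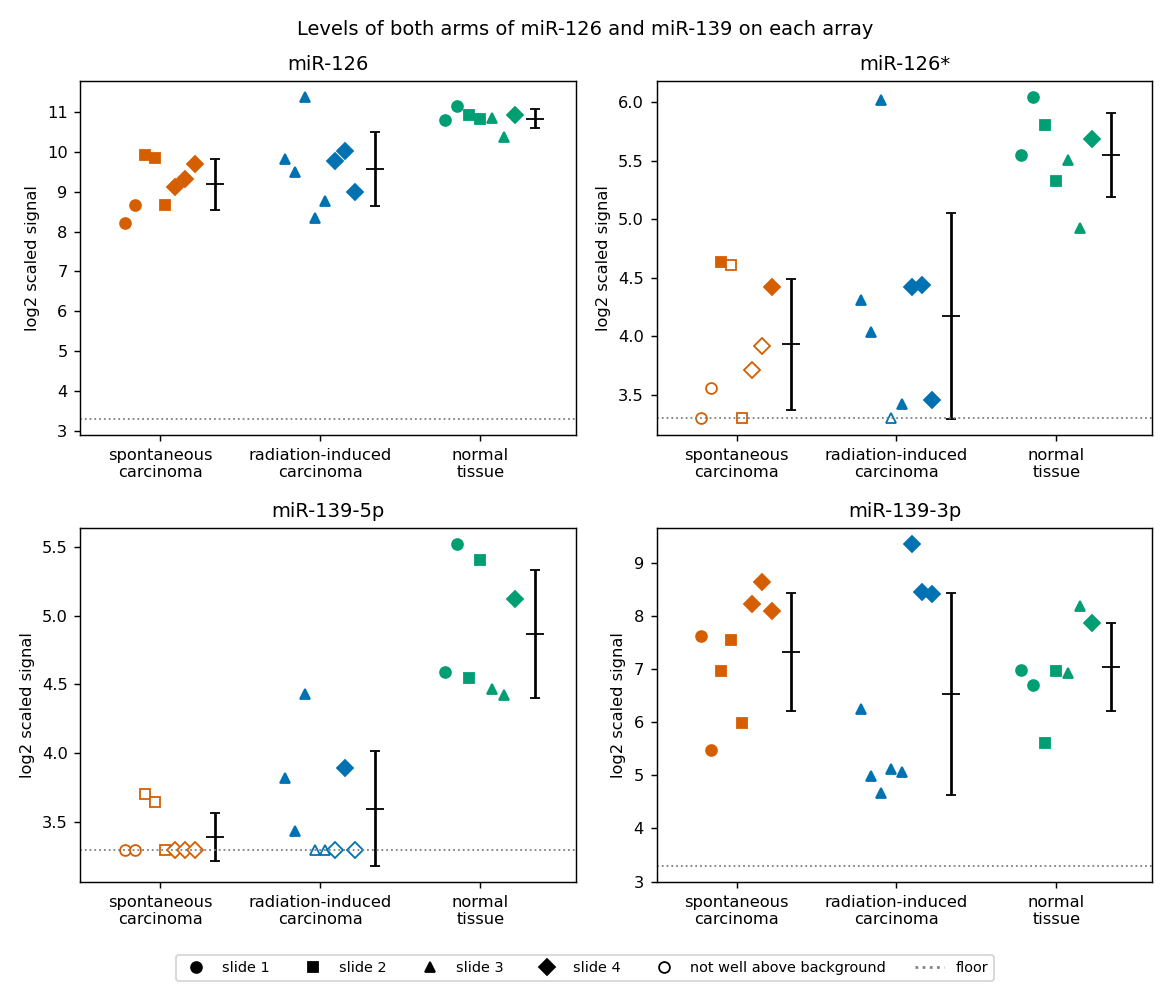
Level of each arm (log2 scaled signal) on the 23 arrays in 3 tissue groups, each panel with its own axis; marker shapes are slides, open markers were not well above background, and bars are the mean and SD of the group. miR-126 in normal tissue sat between 10.39 and 11.17, above every spontaneous carcinoma, while the miR-139-3p values of slide 4 (diamonds) sat between 7.87 and 9.36 in all 3 groups.

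The first comparison set spontaneous carcinomas against normal tissue. miR-126, miR-126* and miR-139-5p were lower, which makes 3 of 4 members. Over all tested miRNAs 14.6% were called lower and 26.1% higher in this comparison, with a median difference of 0.23. miR-126 fell by 1.65 ± 0.34 (SE) on the log2 scale, or 3.15-fold (95% confidence interval 1.93 to 5.15; limma with Benjamini-Hochberg adjustment over 199 miRNAs, adjusted p = 0.000704). miR-126* fell by 1.62 ± 0.33 (adjusted p = 0.000584), which is 3.07-fold on values of which 2 of 8 in the spontaneous carcinomas were well above background. miR-139-5p fell by 1.48 ± 0.20 against the floored values (adjusted p = 1.3e-05, and 1.9e-05 with no detection filter). Only normal tissue brought it past the filter of 7 arrays. Since no spontaneous array had it well above background, the fold is a bound: normal tissue was at least 1.69-fold higher. That bound sets the normal mean of 4.87 against a mean limit of 4.11, which takes on each dim array the higher of its lowest signal well above background and the probe's own signal. miR-139-3p differed by 0.28 ± 0.68 (interval -1.13 to 1.68, adjusted p = 0.783). The groups did not overlap for 3 of 4 members, all lower, against 5.53% of tested miRNAs that did not overlap and were lower.

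These differences moved together with other measures of the arrays. The 75th percentile of the spontaneous arrays did not overlap that of the normal arrays, as given above. With array brightness as a covariate miR-139-5p kept its call, and the differences of miR-126 and miR-126* were -1.54 and -1.43 with adjusted p = 0.125 and 0.135, while the calls over all miRNAs went from 81 to 4. With no scaling the median of all tested miRNAs was 0.98 lower in the spontaneous carcinomas; relative to it, miR-126 was lower by 2.03, miR-126* by 1.63 and miR-139-5p by 1.14. The part of brightness in the result was not tested beyond these values. Under a background correction that adds an offset of 50 to every spot before scaling (normexp), the median of all tested miRNAs was 0.74 higher in the spontaneous carcinomas. miR-126 was still lower there (-1.53), but the dim miR-126* turned to 0.28 (adjusted p = 0.147) and miR-139-5p to 0.49 (adjusted p = 0.0153), both still below the median of all miRNAs by 0.46 and 0.25. With the floor raised to 4.89, the highest lower limit of any array, miR-139-5p no longer passed (-0.20, adjusted p = 0.0556), and the fall of miR-126* was 1.58-fold (adjusted p = 0.00295). With a floor of 1 miR-139-5p fell by 2.58 (adjusted p = 0.000114). The mean of both its probes fell by 0.74 (adjusted p = 2.37e-05), but this is no separate check. Its second probe lay at the floor on all arrays, so averaging shrinks the difference and its SE together.

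Within slides the same 3 miRNAs were lower in the spontaneous carcinomas on each of the 3 slides that held both tissues. For miR-126 the difference was -2.54 on slide 1, -1.39 on slide 2 and -1.54 on slide 4. For miR-126* it was -2.37, -1.39 and -1.67, and for miR-139-5p -1.76, -1.43 and -1.82, in the same order. None of these within-slide differences passed the test with 1 or 2 normal arrays per slide (lowest adjusted p = 0.0592). With slide as a block all 3 passed, at -1.74, -1.68 and -1.52.

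The second comparison set radiation-induced carcinomas against normal tissue, and the same 3 of 4 members were lower. Over all tested miRNAs 8.54% were called lower and 16.6% higher, with a median difference of 0.14. The comparisons against normal tissue share the 7 normal arrays, so they are not independent of each other. miR-126 fell by 1.26 ± 0.34, or 2.40-fold (interval 1.47 to 3.93, adjusted p = 0.0101), and 7 of 8 carcinomas lay below the normal mean. miR-126* fell by 1.37 ± 0.33, or 2.59-fold with 7 of 8 carcinomas detected (adjusted p = 0.00435). miR-139-5p fell by 1.27 ± 0.20 (2.41-fold on values of which 4 of 8 were at the floor, adjusted p = 0.000132), with all 8 carcinomas below the normal mean. Its p-value was the third lowest of the 199 miRNAs, but values at the floor compress its spread. With a floor of 1 it fell by 1.41 ± 0.43 (adjusted p = 0.0225). miR-139-3p differed by -0.50 ± 0.68 (interval -1.91 to 0.90, adjusted p = 0.640). No member was free of overlap with normal tissue, where 2.01% of tested miRNAs were lower without overlap.

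Radiation-induced carcinoma 3 accounted for that overlap in miR-126, miR-126* and miR-139-5p, but not in miR-139-3p. Without it and spontaneous carcinoma 1, the differences from normal tissue were -1.52 for miR-126, -1.64 for miR-126* and -1.39 for miR-139-5p (adjusted p = 0.000100, 3.34e-05 and 9.84e-06). With slide as a block they were -1.28, -1.32 and -1.12 (adjusted p = 0.0451, 0.0430 and 0.00504). Within slide 3 they were -1.05, -0.998 and -0.79, and within slide 4 -1.33, -1.58 and -1.63, and no within-slide difference passed. Under normexp miR-126 was lower by 1.20 and kept its call, whereas miR-126* (-0.29, adjusted p = 0.204) and miR-139-5p (-0.15, adjusted p = 0.550) did not pass. With the raised floor miR-139-5p did not pass either (-0.20, adjusted p = 0.0853), and miR-126* passed at a 1.43-fold fall (adjusted p = 0.0309). The mean of both probes of miR-139-5p fell by 0.64 (adjusted p = 0.000263), again no separate check, as the second probe lay at the floor on all arrays.

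The third comparison set both kinds of carcinoma against each other. 0 of 4 members passed with limma, and 0 of 4 had an unadjusted p under 0.05, where 10.1% of all tested miRNAs were called lower and 8.04% higher in the radiation-induced carcinomas. The difference of miR-126 was 0.39 ± 0.33 (interval -0.30 to 1.07, adjusted p = 0.422) and that of miR-126* was 0.24 ± 0.32 (interval -0.41 to 0.90, adjusted p = 0.631). For miR-139-5p it was 0.21 ± 0.19 (adjusted p = 0.467), with no fold since the spontaneous group has only a limit. For miR-139-3p it was -0.78 ± 0.66 (interval -2.14 to 0.58, adjusted p = 0.422). Without the pair of arrays that lacked miR-200, the differences of miR-126 and miR-126* turned to -0.0059 and -0.11. With no scaling, where the median of all miRNAs was 0.81 higher in the radiation-induced carcinomas, miR-126 passed at 1.33, which is 0.52 above that median. Under normexp, where that median was 0.45 lower, miR-126* (-0.57) and miR-139-5p (-0.64) passed as lower.

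**Figure D2:**
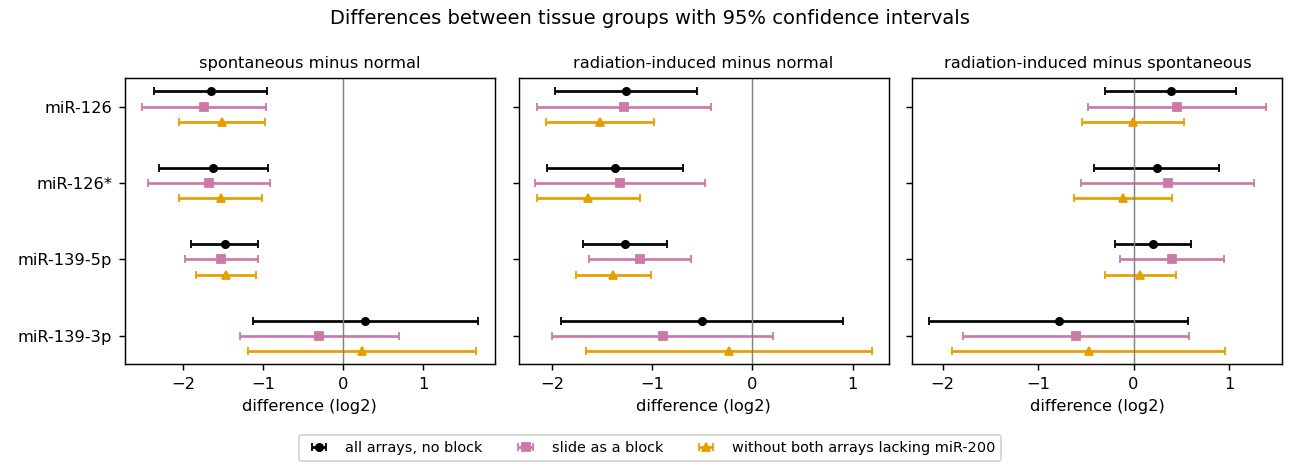
Differences between tissue groups (log2, horizontal axis) with 95% confidence intervals for each miRNA, from all arrays, with slide as a block, and without both arrays that lacked the miR-200 family. The intervals of miR-126, miR-126* and miR-139-5p against normal tissue lie below 0 in all 3 fits, and every interval between the carcinoma groups includes 0.

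Both arms of the miR-126 hairpin were lower in the carcinomas, and the difference between them passed no test of change between groups with the scaling and floor used here. The difference between the arms on 1 array, miR-126 minus miR-126* on the log2 scale, cancels that array's scaling above the floor; its absolute value belongs to the probes, and only its change between groups is read. It was 5.29 ± 0.15 in normal tissue (5.12 to 5.51), 5.26 ± 0.17 in spontaneous carcinomas (4.93 to 5.41) and 5.40 ± 0.17 in radiation-induced carcinomas (5.04 to 5.59). The ranges overlapped throughout. The change was -0.035 in spontaneous against normal tissue (exact permutation test, two-sided, p = 0.678, adjusted over 9 such tests 0.762). It was 0.11 in radiation-induced against normal tissue (exact p = 0.214, adjusted 0.557) and 0.15 between the carcinomas (exact p = 0.111, adjusted 0.498). Values at the floor compress the difference, so it was also read on the arrays where miR-126* was detected. It then ran from 5.29 to 5.30 on 2 spontaneous arrays, from 5.35 to 5.59 on 7 radiation-induced arrays and from 5.12 to 5.51 on 7 normal arrays. Under normexp and with the raised floor, which both compress the dim arm, the change against normal tissue was -1.81 and -0.999 in spontaneous carcinomas and -0.91 and -0.75 in radiation-induced ones, and all 4 passed the exact test (adjusted p = 0.00140, 0.00490, 0.0182 and 0.0266). With no scaling, which moves the floor against the signals, the change was -0.40 in spontaneous carcinomas against normal tissue and 0.48 between the carcinomas, and both passed (adjusted exact p = 0.0493 for each).

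Across the arrays of a group, a tissue with more miR-126 also had more miR-126*. In the spontaneous carcinomas Pearson's r was 0.968 and Spearman's rho 0.994 (exact permutation p = 9.92e-05 for each, n = 8; adjusted over 9 relations 0.00067 and 0.000893). In the radiation-induced carcinomas r was 0.98 and rho 0.976 (adjusted exact p = 0.00067 and 0.00179, n = 8). In normal tissue r was 0.954 (adjusted exact p = 0.00952, n = 7), and rho 0.857 missed the threshold (adjusted 0.0536). Leaving out the 2 arrays farthest from the median of miR-126 gave r of 0.974, 0.982 and 0.785. Both values of a point come from the same array and share its scaling.

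The arms of miR-139 did not keep step in this way. miR-139-5p minus miR-139-3p was -2.17 ± 0.97 in normal tissue (-3.78 to -1.07), -3.93 ± 1.13 in spontaneous carcinomas (-5.35 to -2.18) and -2.94 ± 2.04 in radiation-induced carcinomas (-6.06 to -0.24). The SD of each group was wider than for the miR-126 arms. The spontaneous carcinomas were lower than normal tissue by 1.76 (exact permutation p = 0.00901, adjusted 0.0811), which missed the threshold. Leaving out spontaneous carcinoma 2 or normal tissue 6 put this change past the threshold (-2.005 and -2.02, adjusted exact p = 0.0367 and 0.0450), as did leaving out radiation-induced carcinoma 4, which alters only the adjustment (0.0441). This change missed the threshold when any of the other 20 arrays was left out. It also passed with total gene signal (-2.50, adjusted exact p = 0.0224) and with a floor of 1 (-2.86, adjusted exact p = 0.0322). In the other 10 of 12 alternative settings it did not pass, and its value nearest 0 was -0.091, under normexp. The radiation-induced carcinomas differed from normal tissue by -0.77 (exact p = 0.381, adjusted 0.666) and from the spontaneous ones by 0.99 (exact p = 0.248, adjusted 0.557). Within groups r between the arms was -0.047 in spontaneous carcinomas, -0.24 in radiation-induced carcinomas and -0.018 in normal tissue (adjusted exact p = 0.952, 0.790 and 0.952; rho -0.26, -0.32 and -0.29, each adjusted p = 0.556). With miR-139-5p at the floor on 6 of 8 spontaneous and 4 of 8 radiation-induced arrays, a relation among the carcinomas was detectable only in part.

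miR-126 and miR-139-5p, which come from different hairpins, were both lower in the carcinomas; whether they fell by the same amount depended on the processing. Their within-array difference was 5.98 ± 0.37 in normal tissue, 5.80 ± 0.53 in spontaneous carcinomas and 5.98 ± 0.59 in radiation-induced carcinomas. It changed by -0.18 in spontaneous (exact permutation p = 0.465, adjusted 0.666) and by 0.0066 in radiation-induced carcinomas (exact p = 0.980, adjusted 0.980) against normal tissue, and by 0.18 between the carcinomas (exact p = 0.518, adjusted 0.666). The floor sets part of these values, since 6 spontaneous and 4 radiation-induced arrays had miR-139-5p at it: with a floor of 1 in place of 9.82 before the logarithm, the change in spontaneous carcinomas was 0.93 (adjusted exact p = 0.0916). In the other direction, it passed at -0.89 with no scaling, -2.02 under normexp and -1.46 with the raised floor (adjusted exact p = 0.0493, 0.00140 and 0.00280). It also passed at -0.87 with the mean of all probes (adjusted exact p = 0.0224). There the second probe of miR-139-5p, at the floor on all arrays, shrinks the fall of miR-139-5p, so this pass says nothing of an unequal fall. In radiation-induced carcinomas the change in the within-array difference passed at -1.05 under normexp and -1.07 with the raised floor (adjusted exact p = 0.0218 and 0.0276). Within the radiation-induced carcinomas the levels of miR-126 and miR-139-5p rose together (r = 0.893, adjusted exact p = 0.0134, n = 8; rho 0.875, adjusted 0.0214), with r of 0.731 without the 2 farthest arrays. In spontaneous carcinomas r was 0.695 (adjusted exact p = 0.0643) and in normal tissue 0.62 (adjusted exact p = 0.110), and the latter came to 0.014 without 2 arrays.

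**Figure D3:**
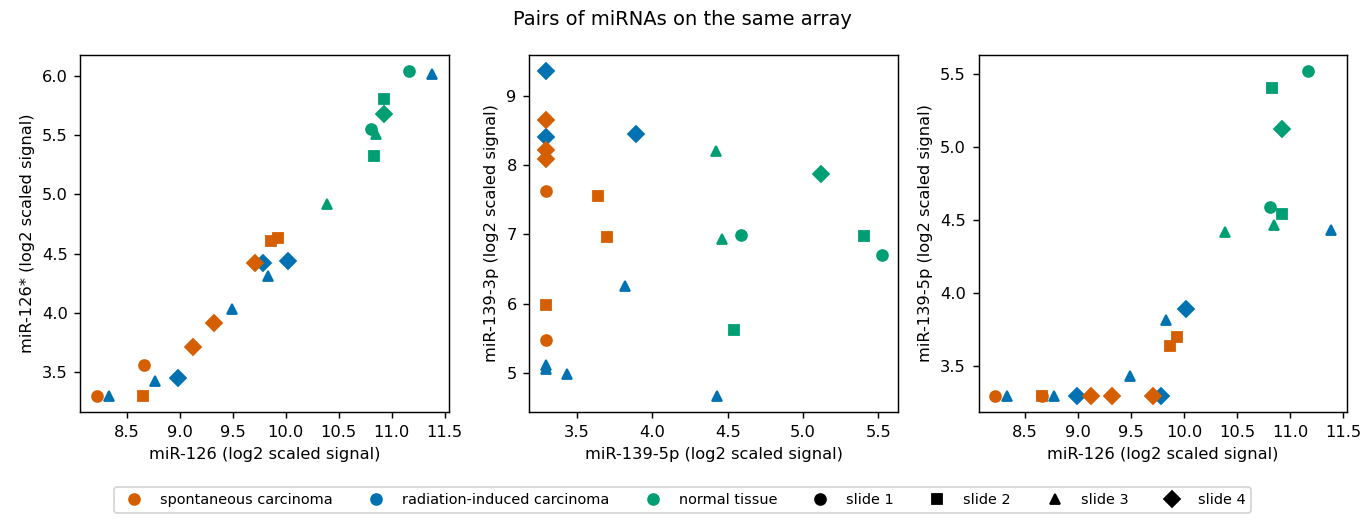
Levels on the same array (log2 scaled signal) of miR-126 and miR-126*, of miR-139-5p and miR-139-3p, and of miR-126 and miR-139-5p; each point is 1 of 23 arrays, with colours for tissue groups and shapes for slides. The miR-126 arms lie along 1 line in all groups, the miR-139 arms do not, and miR-139-5p was at its floor of 3.30 on every array with miR-126 at 9.32 or lower.

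Most of the high levels of miR-139-3p came from slide 4. On the 7 arrays of slide 4, which held 3 spontaneous carcinomas, 3 radiation-induced carcinomas and 1 normal tissue, it ran from 7.87 to 9.36 with a median of 8.41. On the other 16 arrays it ran from 4.67 to 8.20 with a median of 6.48, and only normal tissue 6 on slide 3, at 8.20, reached into the range of slide 4. With tissue group in the model, slide 4 was higher by 2.26 ± 0.39 (interval 1.45 to 3.07, adjusted p = 0.00164), a contrast chosen after the values were seen. It was the 1 miRNA of 199 called in that contrast (0.503% higher, 0% lower). Since the contrast was chosen with these values seen, its p-value and this single call describe them and do not test them. An F test over all 4 slides ranked it first (adjusted p = 0.0520) and called 0 of 199 with limma, of which 8 had an unadjusted p under 0.05. The same contrast gave 0.16 for miR-126, 0.038 for miR-126* and -0.071 for miR-139-5p (adjusted p = 0.983 for each).

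A second probe of miR-139-3p was also higher on slide 4, where it ran from 4.59 to 6.30 and was detected on 7 of 7 arrays. On the other slides it ran from the floor to 5.26, with detection on 8 of 16 arrays. On slide 3 the radiation-induced carcinomas were lower in miR-139-3p than normal tissue by 2.35, and on slide 4 they were higher by 0.87. This gap of 3.22 ± 0.85 between the slides had an unadjusted p of 0.00428 and an adjusted p of 0.851 (limma, interaction over 199 miRNAs, of which 0 were called and 3 had an unadjusted p under 0.05). Without slide 4, a choice made after the data were seen, miR-139-3p was called lower in radiation-induced carcinomas than in normal tissue (-1.68, adjusted p = 0.0321). In that fit miR-139-5p kept its call (-1.17, adjusted p = 0.0117), and miR-126 and miR-126* missed it at -1.26 and -1.31 (adjusted p = 0.0883 and 0.0699). Within slide 4 the carcinoma groups differed by 0.42 in miR-139-3p, opposite in sign to the -0.78 over all arrays.

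**Figure D4:**
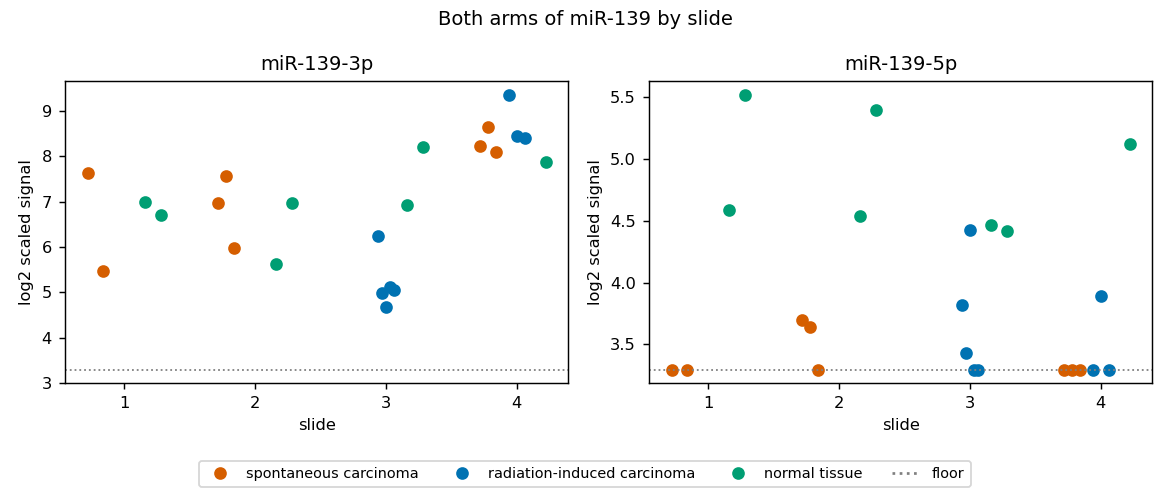
Level of miR-139-3p and miR-139-5p (log2 scaled signal) by slide, each point 1 array and each panel with its own axis, with colours for tissue groups. miR-139-3p sat between 7.87 and 9.36 on slide 4 in all 3 tissues, whereas miR-139-5p was highest in normal tissue on each slide.

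The probes differ in how far they can be trusted. miR-126* has 1 probe with 20 spots per array, and the other 3 miRNAs have 2 probes with 20 spots between them. The median coefficient of variation between spots of the brighter probe, on arrays with detection, was 4.59% for miR-126, 7.06% for miR-126*, 6.28% for miR-139-5p and 9.99% for miR-139-3p. No spot of these probes was saturated. The second probe of miR-126 gave -1.55 for spontaneous and -1.17 for radiation-induced carcinomas against normal tissue, close to the -1.65 and -1.26 of the brighter probe. The second probe of miR-139-5p was well above background on 3 arrays, lay at the floor on all arrays after scaling, and gives no second reading.

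The miRNAs whose levels were most like miR-126 over all 23 arrays were, by Pearson's r, miR-126* (0.984), miR-10a-5p (0.919), miR-139-5p (0.861), miR-10b (0.812) and miR-196a (0.804). For miR-139-5p they were miR-10a-5p (0.912), miR-126* (0.877), miR-126 (0.861), miR-10b (0.854) and miR-196a (0.806). These r values are descriptions over arrays that share the 3 tissue groups and the scaling. miR-139-3p ranked 79th for miR-126 (r = 0.023) and 86th for miR-139-5p (r = -0.061). Of deviations from the group means, miR-126 was most like miR-126* (0.970), miR-10a-5p (0.872), miR-152 (0.806), miR-99a (0.720) and miR-22* (0.716). miR-139-5p was then most like miR-126* (0.680), miR-126 (0.671), miR-196a (0.644), miR-10a-5p (0.590) and miR-199a-5p (0.491).

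Of 16 other miRNAs studied in vessel growth, 15 could be tested. In radiation-induced carcinomas against normal tissue 3 were called higher and 2 lower, with a median of -0.065, where 16.6% and 8.54% of all tested miRNAs were called. miR-10a-5p and miR-10b, which lie in Hox gene clusters, fell by 2.24 and 2.46, and miR-221, a regulator of the receptor Kit, rose by 1.05 (adjusted p = 4.33e-05, 0.000104 and 0.0225). In spontaneous carcinomas 1 was called higher and 4 lower, with a median of -0.13, where 26.1% and 14.6% of all were called. There miR-10a-5p fell by 2.61, miR-10b by 2.53 and miR-23a by 0.74. Between the carcinomas 2 were called higher and 1 lower, with a median of 0.20, where 8.04% and 10.1% of all were called: miR-222 and miR-221, which share a cluster, were higher by 1.31 and 1.11 in radiation-induced carcinomas, and miR-503 was lower by 1.54. miR-222 was detected on only 1 of 8 spontaneous arrays.

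Markers of other cell types were read on the same arrays. None of the 5 epithelial miR-200 family members passed in any comparison, with medians of 0.35 in radiation-induced and 0.29 in spontaneous carcinomas against normal tissue. Their summed scaled signal ran from 3442 to 10797 in normal tissue (median 7749). It ran from 49.1 to 26676 in spontaneous carcinomas (median 17908) and from 49.1 to 19885 in radiation-induced carcinomas (median 16439), the lowest values being the arrays at the floor. With such an array in each carcinoma group, the SE of the members against normal tissue was 1.07 to 1.33. The lack of a call therefore does not show equal levels, and the fit without these arrays is not given for this family. Of 5 smooth muscle and fibroblast miRNAs, 3 were called lower in spontaneous carcinomas than in normal tissue, where 14.6% of all tested miRNAs were. These were miR-199a-3p (-2.01), miR-199a-5p (-1.80) and miR-214 (-1.61). The summed signal of the 5 ran from 2668 to 9496 in spontaneous carcinomas and from 9470 to 14522 in normal tissue. None of the 5 passed in radiation-induced carcinomas against normal tissue (median -0.89, sums 5969 to 25124). Between the carcinomas 2 of the 5, miR-145 and miR-143, were higher in radiation-induced ones by 1.36 and 1.30, where 8.04% of all tested miRNAs were called higher.

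Over all tested miRNAs 8.54% were called lower in radiation-induced and 14.6% in spontaneous carcinomas against normal tissue. Of the 4 leukocyte miRNAs on the array, 1 and 2 were called lower in these comparisons. miR-150, known from mature lymphocytes, fell by 1.59 in radiation-induced and by 2.17 in spontaneous carcinomas. miR-223, known from myeloid cells, fell by 1.35 in spontaneous carcinomas. miR-142-3p and miR-142-5p did not pass in either comparison (-0.20 and 0.13 in radiation-induced, -0.44 and -0.42 in spontaneous carcinomas). The leukocyte sums ran from 1660 to 3380 in normal tissue, from 221 to 3926 in spontaneous and from 926 to 5058 in radiation-induced carcinomas. Neither erythroid miRNA, miR-144 or miR-451, passed in any comparison, and the erythroid sums ran from 84.4 to 626 in normal tissue, from 60.4 to 737 in spontaneous and from 36.8 to 274 in radiation-induced carcinomas. Of 3 striated muscle miRNAs tested, 2 were called lower in radiation-induced and 1 in spontaneous carcinomas. miR-133b fell by 1.88 in radiation-induced and by 1.44 in spontaneous carcinomas. It was detected on 7 of 7 normal arrays and on 2 of 8 in each carcinoma group. miR-1 fell by 1.1 in radiation-induced carcinomas and did not pass in spontaneous ones (-0.41). It was detected on 6 of 7 normal, 1 of 8 radiation-induced and 2 of 8 spontaneous arrays. Both miR-133b and miR-1 met the filter of 7 arrays only through normal tissue, so their calls as lower are not free of that selection. miR-206 passed in neither (-0.31 in radiation-induced, 0.82 in spontaneous carcinomas), and miR-133a was detected on no array. The striated muscle sums ran from 56.1 to 343 in normal tissue, from 46.8 to 174 in spontaneous and from 39.3 to 85.3 in radiation-induced carcinomas. The part of these shifts in the results for miR-126 and miR-139-5p was not tested.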

How the data were processed

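Per the file headers, spot intensity was extracted with Agilent Feature Extraction 9.5.1.1 (headers name build rn4), as a background-subtracted processed signal that is not normalized between arrays. Per the labels' protocols, 100 ng of total RNA was dephosphorylated and labelled with pCp-Cy3. The authors' deposited values are total gene signals, an intensity on a linear, uncentred scale. For 350 miRNAs 100% of those above the minimum of 5 matched the scanner output within 1%, and column medians ran from 5 to 20.7.

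Each array has 7000 miRNA spots and 953 control spots, which were left out. Spots without an outlier mark were averaged over 938 probes. As 35.7% of probe values were detected, the 75th percentile of the 199 probes detected everywhere served to scale each array. Signals were then floored at 9.82 (log2 3.30), the typical lowest detected signal of an array (median of 23), and log2-transformed. The probe with the highest mean stood for each miRNA, and the 199 miRNAs detected on at least 7 arrays were tested. limma 3.58.1 in R 4.3.3 fitted 1 mean per group over 23 arrays (22.5 degrees of freedom), with Benjamini-Hochberg adjustment and a threshold of 0.05. Within-array differences were tested by exact permutation in R and correlations with scipy 1.17.1. Tests were run on simulated data first. No 2 arrays held the same values. The number of arrays limits the precision.

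The normexp alternative used the median spot signal, as the mean signal is not used here. Alternatives covered scaling, background, floor, probe choice, filters, slides, brightness and arrays left out. Those without slide 4 and with a floor of 1, the slide contrasts and the interaction were added after seeing the data. The members and lists were chosen with earlier results of these data known. The text names the 4 members, the 5 miRNAs most like miR-126 and miR-139-5p, and up to 3 of each list with the lowest p.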

Additional observations from a re-analysis of the deposited data

Results flagged for a closer look

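Of 21 checks for a single array far from its group (chance gives about 1 in 20), 2 found one. The level of miR-126* in radiation-induced carcinoma 3 was 6.02, and the next highest in its group was 4.44. The same array had the miR-200 family at the floor. The miR-126 arm difference in radiation-induced carcinoma 4 was 5.04, and the next lowest in its group was 5.35; miR-126* was at the floor there. For miR-139-3p, radiation-induced minus normal was 3.22 higher on slide 4 than on slide 3: all radiation-induced carcinomas lay below the mean of the normal tissues on slide 3 and above the normal tissue on slide 4. The interaction did not pass (limma, adjusted p = 0.851).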

How the results depend on the processing

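No paired analysis was possible because the replicate numbers of the carcinomas only follow the order of deposition. Leaving out each array in turn kept 3 members called against normal tissue in both carcinoma groups and 0 between the carcinomas. miR-126 then ran from -1.52 to -1.09 in radiation-induced and from -1.76 to -1.52 in spontaneous carcinomas. The remaining limits are the floor, array brightness and slides with few normal tissues; the causes of the changes below were not tested.

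Members called in radiation-induced carcinomas against normal tissue came to 1 under normexp, 1 with miRNAs detected on all arrays (fewer members tested) and 0 within slides 3 and 4. In spontaneous carcinomas against normal tissue they came to 1 with detection on all arrays, 1 with brightness as a covariate and 0 within slides 1, 2 and 4. At an unadjusted p under 0.05 these slides gave 3 members each, except slide 3 with 1. That member was miR-139-3p (-2.35), not one of the 3 called lower over all arrays. Of all 199 miRNAs, 33 met that threshold on slide 1, 67 on slide 2, 28 on slide 3 and 18 on slide 4 in each comparison. Between the carcinomas they came to 1 with no scaling, 2 under normexp, and the deposited table gave 3. Of all 199 miRNAs, 99, 104 and 99 were called in these settings. With the deposited table the median of all miRNAs was 0.83 higher in radiation-induced carcinomas. miR-126, miR-126* and miR-139-5p were 0.48, 0.35 and 0.054 above that median. Calls against normal tissue also changed in settings not listed above. Under normexp in spontaneous carcinomas, miR-126* lost its call and miR-139-5p was called higher (0.49). The raised floor removed the call of miR-139-5p in both carcinoma groups. Without slide 4, the members called lower in radiation-induced carcinomas were miR-139-5p and miR-139-3p.

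Signs turned for some miRNAs. miR-139-3p, spontaneous minus normal, was -0.18 with the percentile over all probes, -0.039 with quantile normalization, -1.07 with no scaling, -1.05 with the deposited table, -0.18 without slide 4, -0.29 with the slide block, -1.22 with the brightness covariate and -0.29 within slide 1. Its radiation-induced minus normal difference was 0.87 within slide 4. Between the carcinomas it was 0.15 with no scaling, 0.16 with the deposited table, 0.26 with the brightness covariate and 0.42 within slide 4. Under normexp miR-126* and miR-139-5p were 0.28 and 0.49 in spontaneous carcinomas against normal tissue, and -0.57 and -0.64 between the carcinomas. Without both arrays that lacked miR-200, miR-126 and miR-126* were -0.0059 and -0.11 between the carcinomas. Leaving out single arrays gave -0.019 to 0.37 for miR-126* between the carcinomas, the lowest without radiation-induced carcinoma 3.

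The miR-126 arm difference, spontaneous minus normal, was 0.20 with quantile normalization, -0.40 with no scaling (passing), -1.81 under normexp (passing), 0.024 with total gene signal and with the deposited table, -0.999 with the raised floor (passing), 0.015 with the mean of all probes, 0.0023 with a floor of 1, 0.012 without both arrays lacking miR-200 and 0.077 with M-coded spontaneous carcinomas. It ran from -0.065 to 0.012 without single arrays. For radiation-induced minus normal it was -0.015 with quantile normalization, -0.91 under normexp and -0.75 with the raised floor (both passing). Between the carcinomas it was -0.22 with quantile normalization, and 0.48 with no scaling and 0.90 under normexp (both passing). Single arrays gave 0.098 to 0.20 there, and it passed without radiation-induced carcinoma 4 (adjusted exact p = 0.0441).

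The miR-139 arm difference, spontaneous minus normal, passed at -2.50 with total gene signal and -2.86 with a floor of 1, and ran from -2.02 to -1.55 without single arrays. It did not pass in the other 10 of 12 alternative settings and was -0.091 under normexp. For radiation-induced minus normal it was 0.28 with the raised floor and 0.52 without slide 4.

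The difference of miR-126 and miR-139-5p, radiation-induced minus normal, was -0.097 with the percentile over all probes, -0.17 with quantile normalization, -0.054 with no scaling, -1.05 under normexp and -1.07 with the raised floor (both passing), -0.58 with the mean of all probes, -0.13 without both arrays lacking miR-200 and -0.095 without slide 4, and ran from -0.13 to 0.14 without single arrays. For spontaneous minus normal it passed at -0.89 with no scaling, -2.02 under normexp and -1.46 with the raised floor. The raised floor put miR-139-5p at the floor on every carcinoma array. The within-array difference also passed at -0.87 with the mean of all probes, which takes in the second miR-139-5p probe, at the floor on all arrays. The difference was 0.60 with total gene signal, 0.93 with a floor of 1 and 0.11 with M-coded spontaneous carcinomas. Between the carcinomas it was -0.035 with quantile normalization, 0.83 with no scaling and 0.97 under normexp (both passing), -0.33 with total gene signal, -0.78 with a floor of 1, -0.079 without both arrays lacking miR-200 and -0.11 with M-coded spontaneous carcinomas.

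Over all miRNAs, 50 were called for radiation-induced against normal tissue (33 higher, 17 lower). With the percentile over all probes there were 16 higher and 19 lower, with quantile normalization 14 and 21, with no scaling 4 and 23, with the deposited values 3 higher and 22 lower, and under normexp 43 and 10. Counts were 28 with the raised floor, 95 without both arrays lacking miR-200, 20 without slide 4, 28 with the slide block, 76 from only the compared groups, 33 with detection on all arrays, and 0 within slides 3 and 4 (28 and 18 at an unadjusted p under 0.05). For spontaneous against normal tissue there were 52 higher and 29 lower, against 25 and 57, 29 and 43, 4 and 112, 4 and 105, and 122 and 22 in the same order of settings. They were 4 with the brightness covariate, 28 within slide 2 and 0 within slides 1 and 4 (33 and 18 unadjusted). Between the carcinomas there were 16 higher and 20 lower, against 29 and 5, 14 and 6, 99 and 0, 99 and 0, and 11 and 93. They were 19 with the raised floor, 10 with M-coded spontaneous carcinomas, 23 with detection on all arrays, 23 with no filter, 7 with the slide block, 3 within slide 4, and 0 without slide 4, with the brightness covariate and from only the compared groups (48, 16 and 58 unadjusted). Leaving out single arrays gave 35 to 71, 73 to 91 and 20 to 47 calls in these comparisons. Of these, the counts between the carcinomas moved by over 1.5 times without radiation-induced carcinoma 1 (23) or 7 (20).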
